A study of Mus musculus with 10 samples.

Results

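The keratin genes were taken as the protein-coding genes of chromosomes 1 to 19 whose symbol is Krt followed by digits alone, in the GENCODE M21 annotation of mm10. This rule gave 49 of 20807 coding genes, with 25 in the type I cluster on chromosome 11 and 24 in the type II cluster on chromosome 15, which also holds the type I gene Krt18. The letter-suffixed genes Krt6a, Krt6b, Krt33a and Krt33b were left out by the rule, and Krt74 is annotated as a pseudogene. The rule used no measured value. Each keratin gene was described by the H3K4me3 ChIP-seq peaks and the ATAC-seq peaks within 2 Kb of its start and along its cluster. H3K4me3 is a histone mark found at the starts of active and poised genes, and ATAC-seq marks chromatin open to the Tn5 transposase.

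The cells were F123 mouse embryonic stem cells, an F1 line from a cross of Mus musculus castaneus and S129/SvJae. They were grown in serum replacement medium with LIF on irradiated CF1 mouse embryonic fibroblasts and passaged once without feeders before harvest. No treatment or genotype was compared. Each assay had 2 biological replicates, of 2000000 cells for ChIP-seq and 100000 cells for ATAC-seq, and the authors' list for each assay stands for both. The H3K4me3 list held 33487 peaks and the ATAC list 179109. With 1 list per assay no value has a spread between replicates, the depth of the libraries is unknown, and no difference below was tested. The one line is a single genetic background, and the share of fibroblasts left at harvest is not given in the sources used here. Over all coding genes, 67.7% had an H3K4me3 peak within 2 Kb of the gene start and 75.9% an ATAC peak. Of the markers of embryonic stem cells, 7 of 8 had H3K4me3 there and 8 of 8 an ATAC peak. The counts were 5 of 8 and 7 of 8 for feeder fibroblast markers, 5 of 6 and 6 of 6 for trophoblast markers, and 5 of 6 and 4 of 6 for primitive endoderm markers. Stratified epithelium markers, 4 of which are the keratins Krt1, Krt5, Krt10 and Krt14, gave 2 of 7 and 5 of 7. A peak at a start is not a level of RNA, and the part of other cells in any peak was not tested.

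Keratins are the intermediate filament proteins of epithelial cells. A type I and a type II keratin pair to build a filament, so each epithelium uses a pair drawn from both clusters. Krt8 and Krt18 form the pair of simple epithelia and of the trophectoderm, the first epithelium of the embryo, and Krt19 is a further type I partner there. Krt5 and Krt14 are the pair of basal keratinocytes, Krt1 and Krt10 that of the suprabasal epidermis, and other members serve the inner root sheath and the shaft of hair.

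The sequences before the starts of Krt8 and Krt18, the simple pair, are shown beside that of Krt5, which had no peak of either kind within 2 Kb, to set marked starts against an unmarked one. Each runs 5′ to 3′ on the strand of its gene, from 250 bases before the RefSeq start to 20 bases past it (RefSeq, GRCm38.p6, the build of mm10). Capitals mark CpG and TATAAA on either strand. The sequence of Krt8 is on the minus strand at chr15:102004323-102004592, that of Krt18 on the plus strand at chr15:102027966-102028235, and that of Krt5 on the minus strand at chr15:101712886-101713155.
Krt8: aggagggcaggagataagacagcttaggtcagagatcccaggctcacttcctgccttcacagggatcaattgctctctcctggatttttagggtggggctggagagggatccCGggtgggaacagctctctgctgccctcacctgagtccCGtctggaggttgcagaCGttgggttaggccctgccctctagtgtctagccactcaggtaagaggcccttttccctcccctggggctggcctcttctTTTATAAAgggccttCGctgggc
Krt18: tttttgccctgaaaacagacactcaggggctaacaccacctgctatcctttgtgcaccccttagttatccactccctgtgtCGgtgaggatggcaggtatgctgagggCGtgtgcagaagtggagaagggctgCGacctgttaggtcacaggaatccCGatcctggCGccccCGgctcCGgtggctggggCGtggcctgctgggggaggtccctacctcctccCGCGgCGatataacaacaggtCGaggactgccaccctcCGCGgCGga
Krt5: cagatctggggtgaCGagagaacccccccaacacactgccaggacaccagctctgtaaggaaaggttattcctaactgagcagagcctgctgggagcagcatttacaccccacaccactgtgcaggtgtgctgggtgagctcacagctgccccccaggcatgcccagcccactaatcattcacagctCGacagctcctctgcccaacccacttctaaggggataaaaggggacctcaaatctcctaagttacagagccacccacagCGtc
The Krt18 sequence holds 15 CpG, the Krt8 sequence 4 and the Krt5 sequence 3. TATAAA occurs in the Krt8 sequence alone among the 3, on both strands, in overlapping matches that lie across the RefSeq start. The RefSeq starts lie 140 bp, 36 bp and 7 bp from the GENCODE starts of Krt8, Krt18 and Krt5. Sequences of Krt19 and Krt14 had been planned as well, but no RefSeq promoter sequence of Krt19 was found. That of Krt14, which had no H3K4me3 peak, is not printed because its start lies 1518 bp from the GENCODE start. It holds 5 CpG, more than that of Krt8, so the counts do not order marked above unmarked starts.

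Few keratin starts carried H3K4me3 in these cells. A peak lay within 2 Kb of the gene start at 11 of 49 members (22.4%), against 67.7% of the 20807 coding genes. An ATAC peak lay there at 13 members (26.5%, against 75.9% of coding genes), and both kinds at 7 (14.3%, against 67.2%). Counted from the starts of coding transcripts, H3K4me3 was found at 13 members (26.5%, against 70.2%) and ATAC at 14 (28.6%, against 78.2%). The 2 genes added for H3K4me3 were Krt19 and Krt10, and the 1 added for ATAC was Krt19. Of the type I cluster, 3 of 25 members (12.0%) had an H3K4me3 peak at the gene start, and of the type II cluster 8 of 24 (33.3%). The ATAC count depended on the window, with 7 members where the peak had to cover the start and 21 with a window of 5 Kb, while the H3K4me3 count ran from 9 to 14 over all settings tried.

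Krt8, Krt18 and Krt19 had stronger and wider peaks at their coding starts than the 9 other members marked at the gene start. The same held for a short coding transcript of Krt10. Strength is given as the fold enrichment in the authors' list, over the background of their peak caller, with the −log10 of its q-value. The Krt8 start was covered by a peak of 2603 bp at chr15:102001946-102004548, which was enriched 15.4-fold (−log10 q 165). It began 66 bp before the start and ran 2536 bp into the gene, over the first exon. The Krt18 start was covered by a peak of 1904 bp at chr15:102027752-102029655, which was enriched 22.6-fold (−log10 q 243). A weaker peak, enriched 5.77-fold, lay before it, from 3101 to 761 bp before the start. The first exon of the coding transcript of Krt19 was covered by a peak of 1917 bp at chr11:100144347-100146263, which was enriched 25.1-fold (−log10 q 282). This peak lay 2402 bp or more inside the gene record, because the record begins at a non-coding transcript 2545 bp before the coding start, and no peak of either kind lay within 2 Kb of the start of the record.

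Against all marked genes, the 3 peaks were below the median. Among the 14079 coding genes with H3K4me3 within 2 Kb, the strongest peak per gene had a median fold enrichment of 30.9 and quartiles of 20.4 and 40.4. Krt19 was above 35.0% of these genes, Krt18 above 29.5% and Krt8 above 16.7%. In the whole list, whose median is 8.93, the Krt19 peak was above 72.6% of the peaks, the Krt18 peak above 69.6% and the Krt8 peak above 60.8%.

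Open chromatin at the simple keratins was spread over several peaks. Krt8 had 3 ATAC peaks within 2 Kb, which lay 1414 to 869 bp before the start, across it, and 985 to 1605 bp inside. Krt18 also had 3, at 1695 to 1546 bp before, across the start and 417 to 648 bp inside. Across coding genes the median was 1 ATAC peak, and 7.64% of genes had 3 or more. Krt19 had 2 near its coding start, 1 of which covered it. The start of the lincRNA Gm36026 lies inside the Krt8 peak, so signal there cannot be assigned to Krt8 alone.

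**Figure D1:**
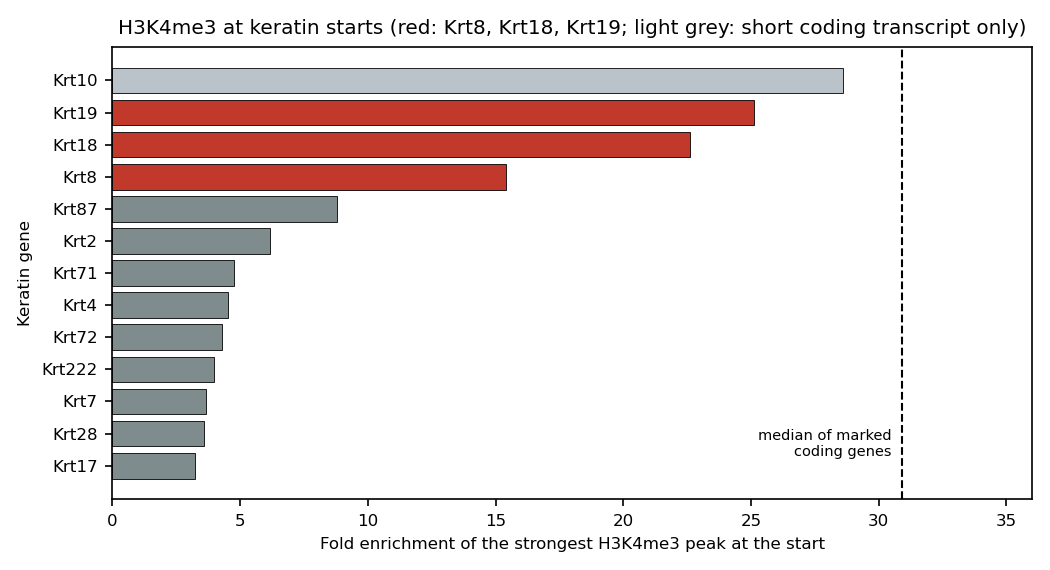
Fold enrichment of the strongest H3K4me3 peak (horizontal axis, linear) at each of the 13 keratin genes with a peak within 2 Kb of the gene start or over a coding transcript start, 1 bar per gene. Krt8, Krt18 and Krt19 (red) and the short coding transcript of Krt10 (light grey) stand at 15.4 to 28.6, the other 9 (dark grey) at 3.23 to 8.79, and the dashed line is the median of 30.9 of marked coding genes.

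The 9 other members marked at the gene start had weak and narrow peaks. Of the 46 members other than Krt8, Krt18 and Krt19, 9 (19.6%) had H3K4me3 at the gene start, 11 (23.9%) an ATAC peak and 5 (10.9%) both. The 9 H3K4me3 peaks had fold enrichments of 3.23 to 8.79 with a median of 4.30, −log10 q of 6.59 to 51.4 and widths of 279 to 898 bp. Each was above at most 7.83% of the strongest peaks of marked coding genes, and their values lay below those of the 3 simple keratins. By coding starts, which bring in Krt19, Krt10 enters as well with a peak of 28.6 and 2144 bp, stronger than the peaks of the 3 simple keratins and wider than those of Krt18 and Krt19. By coding starts the other members thus overlapped the simple keratins, with 10 of 46 (21.7%) marked.

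Among the hair keratins, Krt87, a type II keratin of the hair shaft, had the strongest of the 9 peaks. It had a fold enrichment of 8.79 at chr15:101438374-101439227 and lay across the start, with an ATAC peak over the start as well. Krt87 was the 1 marked member of 13 hair shaft keratins (7.69%, against 67.7% of coding genes). Krt86, another of this class, had an ATAC peak 445 to 193 bp before its start and no H3K4me3 peak there. Of 7 inner root sheath keratins, 3 (42.9%) had H3K4me3 and 0 had an ATAC peak, against 67.7% and 75.9% of coding genes. The grouping by tissue was made after the peaks were seen, and no difference between groups was tested. Krt28 had a peak of 279 bp and 3.58, Krt71 one of 380 bp and 4.76, and Krt72 one of 616 bp and 4.30. The Krt71 peak did not touch the start but lay 97 to 476 bp inside, in the first exon.

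Among the epidermal and other stratified keratins, Krt2, a keratin of the upper epidermis, had a peak of 6.16 across its start and an ATAC peak 104 to 274 bp inside. Krt4, the type II keratin of the oral and oesophageal lining, had a peak of 4.54 without an ATAC peak. Krt17, which is induced in injured epidermis and expressed in hair follicles, had a peak of 3.23 across its start, and its ATAC peak lay 1710 to 891 bp before it. The basal keratins Krt5, Krt14 and Krt15 had no H3K4me3 peak within 2 Kb. Krt14 had an ATAC peak 1542 to 1417 bp before its start, and the nearest to the start of Krt5 lay 3072 bp away.

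Krt7, a type II keratin of simple and ductal epithelia, had a peak of 3.68 from 1043 to 1873 bp inside the gene, where a further coding transcript and the antisense gene Gm671 begin, so the peak cannot be assigned to one of them. Krt20, the type I keratin of the intestinal lining, had neither peak. Krt222 had a peak of 3.99 across its start with 2 ATAC peaks. ATAC peaks without H3K4me3 lay within 2 Kb of 6 gene starts, those of Krt86, Krt14, Krt10, Krt42, Krt80 and Krt79, and 3 of these, at Krt10, Krt80 and Krt79, covered the start.

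Some keratin starts had H3K4me3 without an ATAC peak, a count made after the values were seen. Krt28, Krt71, Krt72 and Krt4 made 4 of the 11 members with an H3K4me3 peak, against 0.746% of the 14079 marked coding genes. Their peaks were all weak. Among coding genes whose strongest start peak was under 5, 7.48% of 508 lacked an ATAC peak, against 4 of 7 keratins in that range. Neighbouring keratins share sequence and are not independent of each other.

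No peak of either kind within 2 Kb of the gene start was found at 32 members, or at 31 when coding transcripts were used. These are Krt1, Krt5, Krt9, Krt12, Krt13, Krt15, Krt16, Krt20, Krt23 to Krt27, Krt31, Krt32, Krt34 to Krt36, Krt39, Krt40, Krt73, Krt75 to Krt78, Krt81 to Krt84, Krt88 and Krt90, with Krt19 as the gene that has peaks at its coding start. The 4 letter-suffixed keratins had none either. For the 38 members without H3K4me3 at the gene start, the nearest peak lay 2133 to 62066 bp from it, with a median of 22800 bp. For the 36 without ATAC the nearest lay 2428 to 28306 bp away, with a median of 7620 bp. Krt15 lies 12737 bp from Krt19 and had no peak, and Krt78, the keratin next to Krt8, had none.

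Strong H3K4me3 was found in some keratin genes away from the gene start. Krt10, whose annotated start had an ATAC peak and no H3K4me3, held a peak of 2144 bp enriched 28.6-fold (−log10 q 351), at chr11:99385088-99387231, from 2133 to 4276 bp past the start and over the last exon. This was the strongest H3K4me3 peak of either cluster. A short coding transcript of Krt10 begins inside it, and the antisense gene Gm11940 begins 109 bp away, so it cannot be assigned to the keratin alone. In Krt1, the type II partner of Krt10, a peak of 25.7 at chr15:101845381-101846674 covered the last exon and the end of the gene, 4120 bp or more from the start. In Krt77 a peak of 14.3 lay over the last exon at chr15:101858806-101860636, and in Krt79 a peak of 8.29 at chr15:101929459-101930094. Weaker peaks of 3.69, 3.52 and 3.16 lay over the last exons of Krt86, Krt82 and Krt4.

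Thus 6 of 49 members had an H3K4me3 peak over a last exon, 12.2% against 8.02% of coding genes. Such peaks lay over 2 Kb from the gene start and from every coding transcript start of the gene. For ATAC the count was 8 members, 16.3% against 19.5%. Among genes with no H3K4me3 within 2 Kb of these starts, the mark lay over the last exon at 5 of 36 keratins (13.9%), against 3.12% of 6176 coding genes. All 5 are type II genes, and 0 of 20 such members on chromosome 11 had one. This count was chosen after the peaks of Krt1 and Krt77 had been seen. Among the 1669 coding genes with a last exon peak, whose median is 7.55, Krt1 was above 86.9%, Krt77 above 70.9% and Krt79 above 52.5%. ATAC peaks overlapped the H3K4me3 peaks of Krt1, Krt77, Krt79 and Krt86.

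The part of the coding sequence densest in CpG beneath each of the peaks of Krt1, Krt77 and Krt79 is shown. Each stretch is the 120 bases of coding sequence with the most CpG under the peak, 5′ to 3′ on the minus strand (GRCm38.p6), with CpG in capitals. They lie at chr15:101846069-101846188, chr15:101859956-101860075 and chr15:101929787-101929906.
Krt1 coding stretch: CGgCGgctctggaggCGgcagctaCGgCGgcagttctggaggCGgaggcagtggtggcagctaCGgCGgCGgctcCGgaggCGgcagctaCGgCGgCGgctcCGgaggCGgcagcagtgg
Krt77 coding stretch: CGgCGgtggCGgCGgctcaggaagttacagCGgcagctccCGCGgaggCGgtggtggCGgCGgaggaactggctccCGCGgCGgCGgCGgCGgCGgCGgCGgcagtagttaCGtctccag
Krt79 coding stretch: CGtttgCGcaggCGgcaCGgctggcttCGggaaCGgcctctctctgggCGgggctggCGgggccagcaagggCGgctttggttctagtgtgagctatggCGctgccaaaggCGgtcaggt
The stretches hold 16, 20 and 11 CpG. Those of Krt1 and Krt77 are rich in GGC, a glycine codon, and the tail of Krt1 is known for its glycine loops. The stretches were chosen as the densest under each peak, so their CpG counts are a description of these sites.

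**Figure D2:**
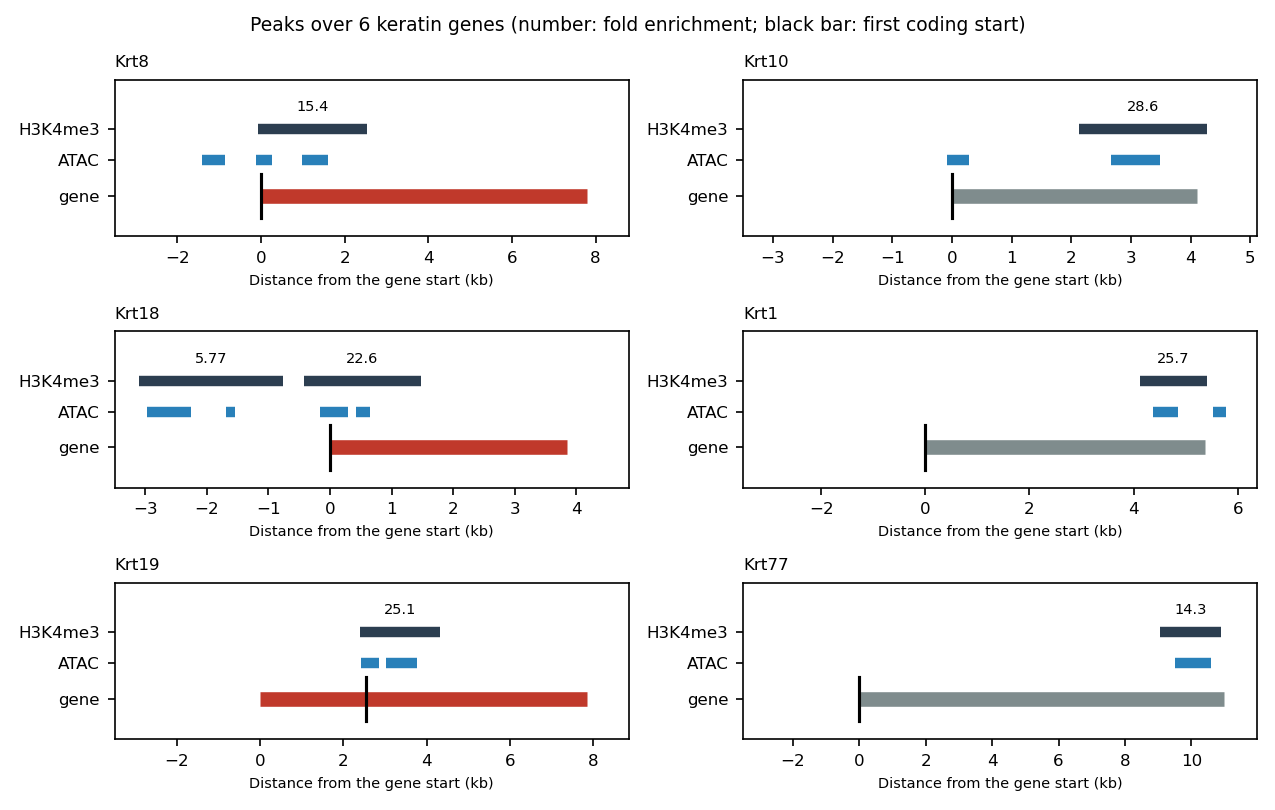
Peaks over 6 keratin genes, drawn in the direction of transcription with the distance from the GENCODE gene start in Kb. Dark bars are H3K4me3 peaks with their fold enrichment, blue bars ATAC peaks, and the black line is the first coding start. The strongest H3K4me3 peak sits over the gene start in Krt8 and Krt18, over the coding start in Krt19, and toward the gene end in Krt10, Krt1 and Krt77, while Krt10 also has an ATAC peak over its start.

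Along the clusters, the type I genes lay in a stretch poor in H3K4me3. Its 1.037 Mb at chr11:99232761-100269871 held 8 H3K4me3 peaks and 60 ATAC peaks, or 7.71 and 57.9 per Mb, against 21.2 and 86.9 per Mb over chromosome 11. The 500 Kb on each side held 66 and 203 peaks in 1.0 Mb, and H3K4me3 covered 9.92% of it, against 0.686% of the cluster. The cluster is no gene desert, with 65.6 coding genes per Mb against 13.4 over chromosome 11 and 8.45 over chromosomes 1 to 19. Each of the 8 H3K4me3 peaks lay over an exon, at Krt222, Krt28 (2 peaks), Krt10, Krt23, Krtap17-1, Krt19 and Krt17. Of the 60 ATAC peaks, 47 lay between coding genes.

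The type II cluster, 0.6846 Mb at chr15:101347444-102032027, held 18 H3K4me3 and 60 ATAC peaks, or 26.3 and 87.6 per Mb, against 14.2 and 68.7 over chromosome 15. The cluster is also denser in genes, with 42.4 coding genes per Mb against 7.54 over chromosome 15, so peaks per Mb are not peaks per gene. Its flanks of 500 Kb were again denser in peaks, with 79 and 201. Of the 18 H3K4me3 peaks, 14 lay over an exon, 8 over a first and 6 over a last exon, and 4 between coding genes. An ATAC peak overlapped 13 of them. The type I cluster gave 5 of 8. In the flanks, 30 of 35 coding genes beside the type I cluster (85.7%) and 29 of 34 beside the type II cluster (85.3%) had H3K4me3 at the start.

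The end of the type II cluster that holds Krt8 and Krt18 was the densest keratin stretch of those counted. Krt8 and Krt18 are transcribed away from each other, with starts 23698 bp apart. From the start of Krt78 to the end of Krt18, 0.07774 Mb held 6 H3K4me3 peaks (77.2 per Mb) and 17 ATAC peaks (219 per Mb). The rest of the cluster held 12 and 43, or 19.8 and 70.9 per Mb. The 500 Kb flanks of the cluster held 79.0 and 201 per Mb, close to the densities of this end. The limits of this stretch were not among the planned comparisons. Between the starts of Krt8 and Krt18 lay 3 H3K4me3 and 8 ATAC peaks in 0.0237 Mb, counting those at the starts. Between Krt78 and Krt8, where no coding gene starts, 3 H3K4me3 peaks of 7.84, 4.97 and 3.40 lay within genome positions 101977028 to 101984920, and each overlapped an ATAC peak.

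The Krtap genes, which encode matrix proteins of the hair shaft, fill the middle of the type I cluster. That stretch of 0.468 Mb held 1 H3K4me3 peak, of 4.76 at Krtap17-1, and 20 ATAC peaks (42.7 per Mb). The rest of the type I cluster held 7 and 40, or 12.3 and 70.3 per Mb. Of all 57 Krtap genes, 2 (3.51%) had H3K4me3 at the start and 7 (12.3%) an ATAC peak, lower shares than those of the 49 keratins.

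**Figure D3:**
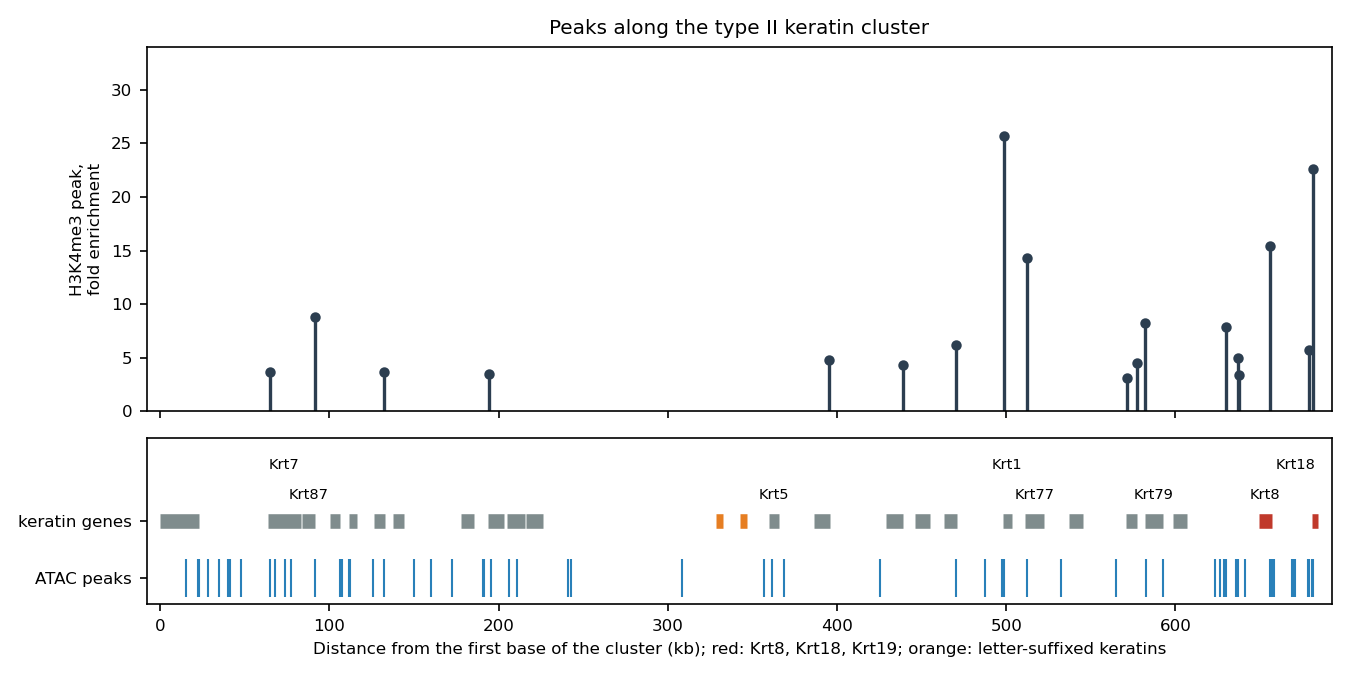
Peaks along the type II cluster, by distance from its first base in kb. The upper panel gives the fold enrichment of each of the 18 H3K4me3 peaks (linear axis), the lower panel the keratin genes and the 60 ATAC peaks, and the peaks above 10 are those at Krt1, Krt77, Krt8 and Krt18, all in the right part of the map.

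**Figure D4:**
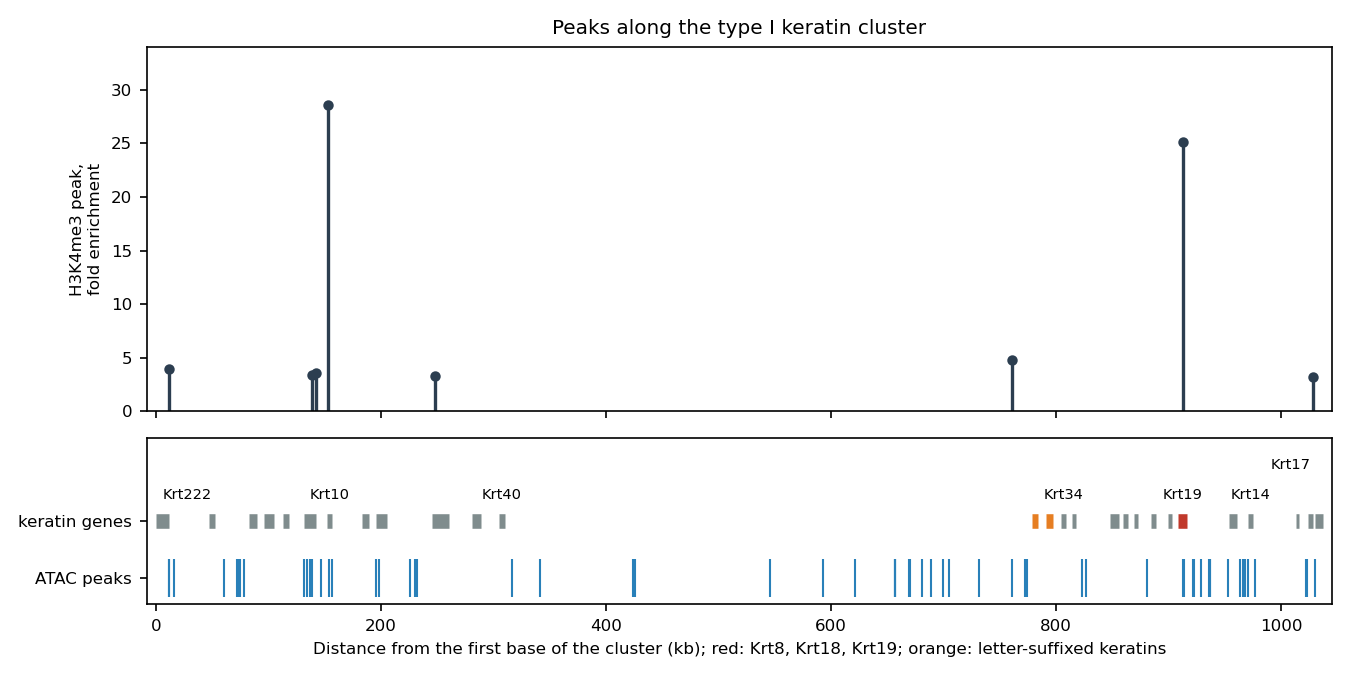
Peaks along the type I cluster, drawn in the same way. The peaks at Krt10 (28.6) and Krt19 (25.1) stand out among 8, and the gap without keratin genes between Krt40 and the orange letter-suffixed genes holds the Krtap genes.

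Most keratin starts had a CpG density below the median of coding starts. In the 500 bp on each side of the first coding transcript start, the median of the 49 members was 2.40 CpG per 100 bp, against 4.4 over all coding starts. Over all coding starts, those with H3K4me3 within 2 Kb had a median of 5.99 and those without had 0.699. The 13 keratins with the mark had a median of 3.10 and the 36 without had 2.30, which is above the upper quartile of 1.3 of unmarked coding starts. Krt87 had the most with 5.19, followed by Krt18 with 4.60, and these 2 were above the median of all coding starts. Krt19 had 3.20 and Krt8 3.10, within the range of unmarked members, whose highest was Krt81 with 3.70. Krt7 had the least of the 49, with 0.599. GC content differed less, with a median of 54.3% over the keratins and 55.2% over all coding starts. The part of CpG density in the peak counts was not tested.

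**Figure D5:**
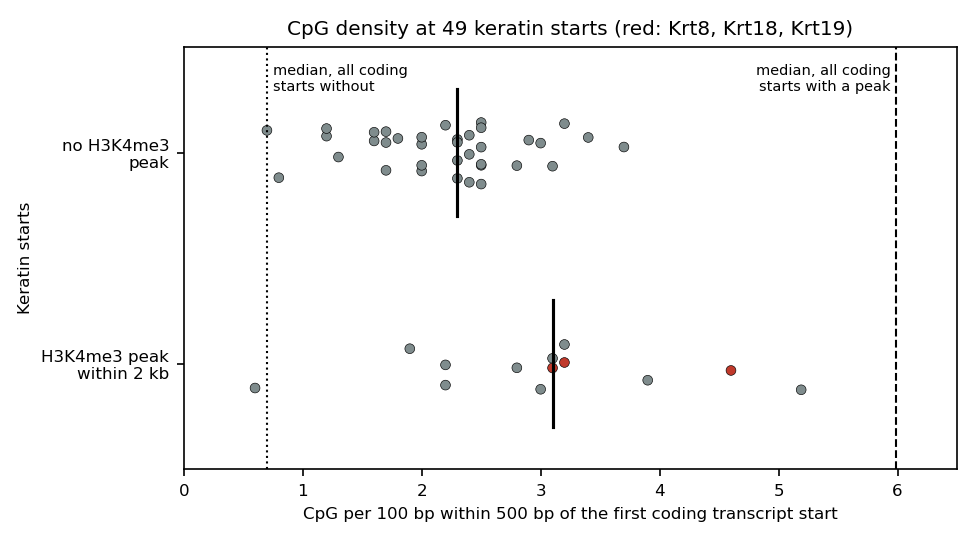
CpG per 100 bp around the first coding start of the 49 keratins, 1 point per gene, for the 13 with an H3K4me3 peak within 2 Kb of a coding start (below) and the 36 without (above). Solid bars are the medians of 3.10 and 2.30, and the dashed and dotted lines the medians of 5.99 and 0.699 for all coding starts with and without the mark. For Krt7 and Krt10 the peak lies away from the first coding start, where CpG was counted.

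Promoter sequences in RefSeq, 250 bases before to 50 after the start, matched 35 of the 49 members with 36 windows. Both strands were searched, and none of the 4 motifs contains another. TATAAA occurred in 50.0% of the keratin windows, against 13.6% of the 32851 windows of the table. GGGCGG occurred in 5.56% against 35.7%, at Krt7 and Krt75. CCAAT occurred in 38.9% against 37.4%, and TGANTCA in 5.56% against 7.81%, in both windows of Krt13. Of the simple keratins, Krt8 had TATAAA and Krt18 had none of the 4 motifs. A match of these letters is a description and not a site.

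The other gene lists, of which the first is largely not epithelial, had higher shares of marked starts than the keratins, except for the cornified envelope. Of a list of other intermediate filament genes, 16 of 19 (84.2%) had H3K4me3 at the start, with Vim, the filament of mesenchymal cells, at 18.1. That list also holds Eppk1, a plakin gene, at 8.13. Of the desmosome and plakin genes, which anchor keratin filaments to the membrane, 13 of 19 (68.4%) were marked, with Dsp at 32.9 and Jup, in the flank of the type I cluster, at 30.2. Among the marked ones Pkp3 had 5.43, and the 6 without H3K4me3 were desmosomal cadherins, Dsc1, Dsg1a and Dsg3 among them. The share was close to that of all coding genes. Of the epithelial junction genes and regulators, 21 of 22 (95.5%) were marked, with Cdh1 at 43.5, Epcam at 31.2 and Trp63, the regulator of stratified epithelia, at 3.87. Of a list drawn up as keratin partners and regulators, 7 of 8 (87.5%) were marked. That list includes Krtcap2 and Krtcap3, whose link to keratins was not checked. The cornified envelope genes of the outer epidermis were marked at 3 of 19 (15.8%), those being Lor with 23.7, Tchh with 12.5 and Tgm1 with 8.41, a share below that of the keratins. For ATAC peaks the order was the other way, with 10 of 19 (52.6%) cornified envelope genes against 26.5% of the keratins. The H3K4me3 shares are read against 67.7% over all coding genes and the ATAC shares against 75.9%. No difference between lists was tested.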

How the data were processed

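Positions were compared with mm10 and the GENCODE M21 genes. The H3K4me3 list was made by the authors with the ENCODE uniform pipeline for histone ChIP-seq at default parameters. Its aligner, peak threshold and use of input are not given in the sources used here. Its deposited strengths are a ratio (fold enrichment over what the caller took as background) and a −log10 q, while the deposited score was not used. For ATAC-seq the authors aligned reads with Bowtie 1.1.2, moved their ends by 4 bp and called peaks with MACS2 2.1.1.20160309. SAMtools removed duplicates, and bedtools 2.27.1 kept those peaks of the pool that each replicate also gave. The ATAC peaks were called with a cutoff on the p-value and not on a q-value. The list holds positions without strengths, so weak peaks cannot be filtered by height.

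A peak was counted when at least 1 bp lay within 2 Kb of the start, the 5′ end of the gene record. Percentages over all coding genes serve as the background. Clusters ran from the first to the last base of their members. The overlap step was tested on simulated data and against bedtools 2.31.1. Python 3.11.15, pandas 2.3.3, numpy 2.4.6, pysam 0.24.0 and matplotlib 3.10.9 were used. Named genes were Krt8, Krt18, Krt19, members with a peak at the start, the best known members of other classes, and the neighbours of the simple keratins. The members and gene lists were chosen with earlier results of these data known, and the grouping by tissue and the last exon counts were made after the peaks were seen. PLAC-seq and input samples were not used here.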

Additional observations from a re-analysis of the deposited data

How the results depend on the processing

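The count of keratin genes with H3K4me3 at the start stayed within 1.5 times the reported 11 in each setting tried, from 9 to 14. The ATAC count of 13 became 21 with a window of 5 Kb, 8 with the widest 50% of the ATAC peaks, and 7 where the peak had to cover the start, which was added after seeing the data. The count with both peaks, 7, became 11 with 5 Kb and 4 where both had to cover the start. In the type I cluster the 8 H3K4me3 peaks became 13 with 50 Kb added on each side, and the cause was not tested. The widest 50% of the ATAC peaks left 27 of 60 in the type I cluster and 34 of 60 in the type II cluster, since that setting removes narrow peaks. Krt19 had 0 H3K4me3 peaks by its gene record and 1 by its coding transcript, likewise added later, and no peak covers its record start, so a peak strength could not be given there. The remaining 31 of 40 alternatives were within 1.5 times the reported value, but some of these settings changed nothing. No member lay within 2 Kb of another coding start, and a −log10 q of at least 5 removed none of the H3K4me3 peaks counted. The strongest peaks near the starts of Krt8 and Krt18 already covered those starts. The tally is thus no measure of robustness. No paired analysis was possible because each assay has 1 list for both replicates, and for the same reason no replicate could be left out. Without reads, a missing peak cannot be told from one below the threshold of the caller.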
